A study of Arabidopsis thaliana with 18 samples.

Results

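A set of 118 *Arabidopsis thaliana* genes, of 33602 in the count table, had low mRNA levels in the *fpa* mutant and kept at least 0.75 times the wild-type level in the *bdrs* triple mutant. Members were chosen from their own CPM (the reads of a gene over all counted reads of its library, times 1000000). A member had a mean of at least 2 CPM in wild type, a mean in *fpa* of at most 0.5 times the wild-type mean, and no *fpa* library as high as the lowest wild-type library. Its mean in *bdrs* was at least 0.75 times the wild-type mean. Of 16654 genes at 2 CPM or more in wild type, 305 met the *fpa* condition on the mean and 297 also had libraries that did not overlap. The *bdrs* condition then removed 179 genes and left the 118 members. The values of *fpa*, wild type and *bdrs* were therefore used up by the choice. They are described below without a test of their own. Counts of members called by the fit across all genes are given beside the share of all genes, and nothing is read from them.

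Messenger RNA was sequenced from whole seedlings in 6 groups of 3 libraries, all in the Col-0 background. They comprised wild type (WT), 3 single mutants, namely *bdr1* (SALK_142108C), *bdr2* (CS852350) and *bdr3* (SALK_059905), the triple mutant of these genes (*bdrs*), and *fpa* (*fpa-7*). Seeds were cold-treated at 4 °C for 4 days without light, and seedlings were collected after 8 days in a chamber kept at 21 °C, on a cycle of 16 h light and 8 h dark. Each mutated gene was represented by 1 allele, and the study describes its WT and *bdrs* libraries as biological triplicates, while nothing used here says how the libraries of the other groups were replicated, so p-values measure the spread between these libraries. In whole seedlings, fewer cells of a type and less RNA per cell cannot be told apart.

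FPA is a nuclear RNA-binding protein with RNA recognition motifs and a SPOC domain. It belongs to the autonomous pathway of flowering, in which it keeps the floral repressor *FLC* low, and it acts in the choice of the sites at which transcripts are cleaved and polyadenylated. The BORDER (BDR) proteins also carry a SPOC domain, together with a domain shared with the transcription elongation factor TFIIS. In a compact genome such as that of *Arabidopsis*, where the transcript of a gene ends bears on the gene that follows it, on the same strand or on the other.

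Library totals ran from 11566600 to 21084793 counts. Ribosomal RNA genes took 1.01% to 1.78% of the counts in *bdr1* 3, *bdrs* 1 and *fpa* 3, against 0.0531% to 0.659% in the other 15 libraries, and *fpa* 3 was also the smallest library. *FPA* (AT2G43410, chromosome 2, 18025247 to 18031255, TAIR10.1) stood at 32.0, 48.0 and 42.3 CPM in WT and at 24.0, 22.1 and 22.4 CPM in *fpa*, so its reads were reduced but not absent (log2 fold change −0.77 ± 0.17 SE, edgeR adjusted p = 0.0100). *FLC* had a mean of 5.67 ± 0.987 CPM (SD, n = 3) in WT. It rose in *fpa*, to 74.9 ± 23.2 CPM (edgeR adjusted p = 7.96e-09), and in *bdrs*, where it reached 43.2 ± 7.75 CPM (adjusted p = 1.36e-07). *BDR1* and *BDR2* fell in their own single mutants and in *bdrs*, whereas for *BDR3* the WT mean was 8.21 ± 0.614 CPM and the mean of *bdr3* was 6.67 ± 2.16 CPM, with 7.52 ± 1.44 CPM in the triple mutant. *BDR3* was not called in *bdr3* or in *bdrs* (edgeR), and *bdr3* 1, at 9.09 CPM, was above every WT library. Shoot and root marker genes were present in whole seedlings, and 0 of 4 shoot markers and 1 of 5 root markers (*EXP7*, higher) were called in *fpa*. All 3 seed markers were lower in *fpa*, and so were 10 of the 11 tested genes of the seed maturation list, with a median log2 fold change of −2.69, while the median over all genes was 0.01.

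The members lay below WT in *fpa*, as the rule required, while in *bdrs*, where the rule set only a floor, they ran from 75.04% to 998% of WT with 10 members at 1.5 times WT or more. Expressed as a percentage of its own WT mean, the median member stood at 46.9%, 43.9% and 35.1% in the 3 *fpa* libraries, at 89.6%, 103% and 98.3% in the *bdrs* libraries, and at 75.6% to 109% in the 9 libraries of the single mutants. The loss in *fpa* was partial for most members. It ran from 0.872% to 49.9% of WT with a median of 43.5%, and 78 of the 118 lay between 40% and 50%, just inside the limit that chose them. At most 25% of WT remained in 10 members and at most 10% in 2. WT means ran from 2.14 to 383 CPM with a median of 8.43 CPM. In 88 members every *fpa* library was below all other 15 libraries, and in 30 at least 1 other library reached into the *fpa* range. The rule had already placed *fpa* below WT and set a floor on *bdrs*, so nothing is read from these counts. The share over all genes was not computed.

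**Figure D1:**
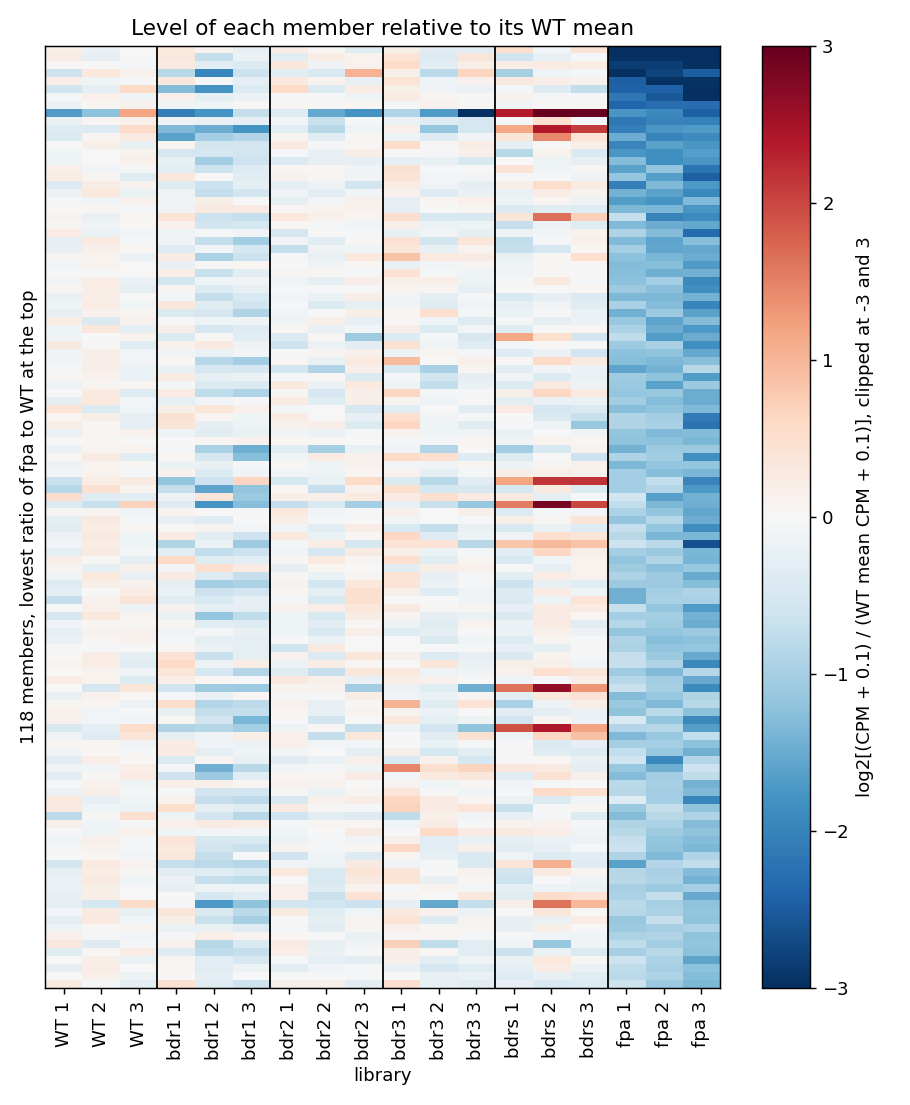
Level of each of the 118 members (rows, lowest ratio of *fpa* to WT at the top) in each of the 18 libraries (columns), as log2 of CPM plus 0.1 over the WT mean plus 0.1, clipped at −3 and 3. The 3 *fpa* columns are blue throughout, while 6 rows called higher in *bdrs* are red in that group.

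The limits of the rule cut through a continuum. Just inside the *fpa* limit stood AT3G46450 and AT5G27560 at 49.9% of WT, and just outside stood *AAO2* at 50.02% and AT5G66060 at 50.1%. At the *bdrs* limit, *NRT1.7* (75.04%) and AT5G49850 (75.4%) were inside, and AT1G01760 (74.1%) and AT5G47440 (73.8%) were outside. At the expression limit, AT1G65500 (2.14 CPM) and AT1G04660 (2.25 CPM) were inside, and *GPT2* (1.99 CPM) and *NET2D* (1.91 CPM) were outside. At the limit on overlap, the highest *fpa* library was 0.985 times the lowest WT library in AT5G27890 and 0.979 times in AT5G67020, both inside, and 1.01 times in *GLP9* and 1.09 times in AT4G22470, both outside. Membership also depended on single libraries. When each WT, *fpa* and *bdrs* library was left out in turn, 52 members met the rule in all 9 settings, and the set held 245 genes without *fpa* 1 (111 of them members). Without the 3 libraries richest in ribosomal RNA it held 112 genes, 79 of them members. With CPM on library sizes scaled by TMM it held 92 genes, 91 of them members.

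A pair of genes, on different chromosomes, was almost without reads in *fpa*. AT3G05170 (chromosome 3, 1466483 to 1468400), a member of the phosphoglycerate mutase family, had 47, 38 and 43 counts in WT, 47, 46 and 57 in *bdrs*, and 1, 0 and 0 in *fpa*. AT5G43180, a putative transmembrane protein, stood at 5.27, 3.82 and 4.46 CPM in WT and at 0.320, 0.0599 and 0.173 CPM in *fpa*. Every library of the other 5 groups held at least 1.90 CPM of the former and at least 2.70 CPM of the latter.

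A pair of neighbouring genes on chromosome 5 came next. AT5G63020 (25283063 to 25286121, minus strand), a nucleotide-binding leucine-rich repeat gene of the class of intracellular immune receptors, stood at 16.5, 16.4 and 15.8 CPM in WT and at 2.18, 2.21 and 1.47 CPM in *fpa*. *GRXC1* (AT5G63030, 25286177 to 25287694, plus strand), which encodes a glutaredoxin, an enzyme that reduces disulfides with glutathione, stood at 12.5, 9.75 and 10.4 CPM in WT and at 1.92, 1.32 and 1.297 CPM in *fpa*. Both genes thus kept under 14% of their WT level in *fpa* (12.04% and 13.9%), and both were at 118% and 115% of WT in *bdrs*. They are transcribed away from each other, and only 55 bases separate their annotated starts. This gap (chr5:25286122-25286176, plus strand, TAIR10.1 of RefSeq) is shown because all of the sequence between the paired genes lies in it.

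AT5G63020 to GRXC1: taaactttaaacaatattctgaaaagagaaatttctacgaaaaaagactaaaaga

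It is 78.2% A and T and, searched on both strands, holds no G-box (CACGTG), W-box (TTGACC or TTGACT), evening element (AAAATATCT), telo-box (AAACCCTA), site II element (TGGGCC) or TATA box (TATAAA), so no base is in capitals.

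*ADK1* (AT5G63400), which encodes an adenylate kinase that interconverts adenine nucleotides, lies further along the same chromosome. It stood at 79.8, 93.3 and 96.8 CPM in WT, 83.2, 92.3 and 91.5 CPM in *bdrs*, and 17.3, 18.5 and 18.4 CPM in *fpa*. Its 3 *fpa* libraries differed by little and held 20.1% of the WT mean. The aldo-keto reductase gene *AKR4C10* (AT2G37790) stood at 10.08, 11.4 and 9.48 CPM in WT and at 2.24, 1.68 and 1.04 CPM in *fpa*. *PYL2* (AT2G26040), a receptor of the drought hormone abscisic acid, stood at 4.22, 4.96 and 5.42 CPM in WT and at 1.02, 1.137 and 1.12 CPM in *fpa*. The groups were far apart in all 3 genes, and every library of the single mutants was above every *fpa* library.

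AT4G30910, an aminopeptidase family gene, fell from 34.8 ± 2.84 CPM in WT to 10.3 ± 0.642 CPM in *fpa*. AT4G12700, annotated as a calcium ion-binding protein, stood at 28.5% of WT in *fpa*, and the long non-coding RNA AT3G46658 at 30.5%. The pseudogene AT4G16870 stood at 13.0%, but its values were uneven, at 2.75, 5.36 and 4.80 CPM in WT and 1.04 to 8.99 CPM in the single mutants. *SESA2*, a seed storage albumin, stood at 3.22, 3.99 and 7.57 CPM in WT, 0.833, 0.838 and 0.519 CPM in *fpa* and 4.82, 3.74 and 2.93 CPM in *bdrs*. It was the only member from the seed maturation list, in which the storage protein gene *CRA1* stood at 290.3 CPM in WT, 74.7 CPM in *bdrs* and 27.4 CPM in *fpa*. The part of seed-derived transcripts in the *SESA2* value was not tested.

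**Figure D2:**
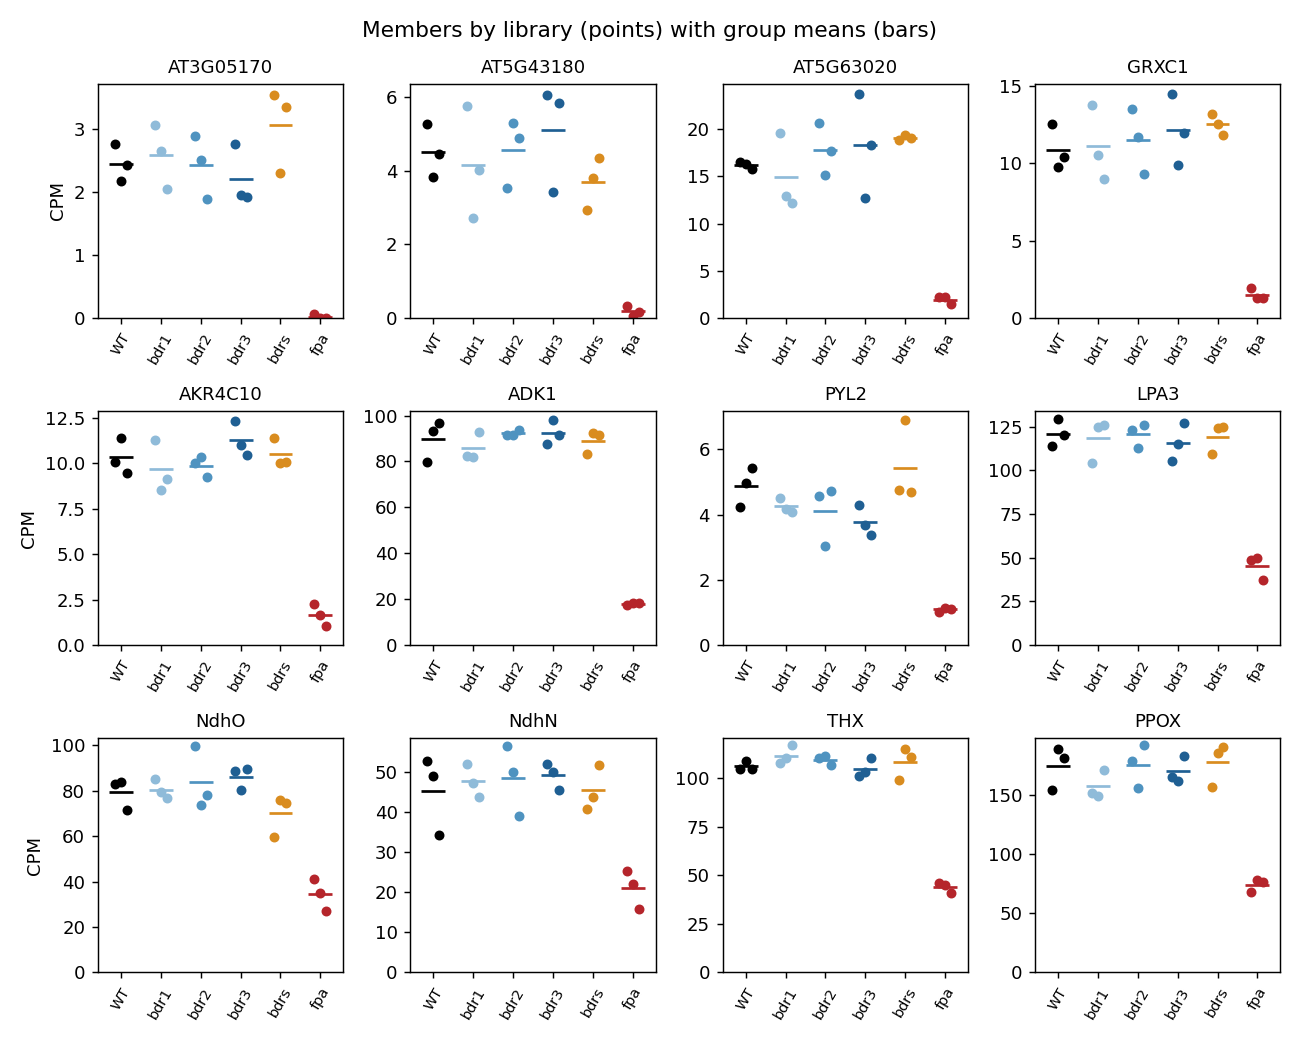
CPM of 12 members in the 18 libraries (points, 3 per group) with group means (bars), each panel with its own vertical axis from 0. In every panel the 3 *fpa* points lie below all 3 WT points, at 0.872% (AT3G05170) to 46.4% (*NdhN*) of the WT mean.

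Of the 8 members with the highest WT level in CPM, 4 encode proteins of the chloroplast. *TLP18.3* (AT1G54780), a thylakoid lumen protein of photosystem II repair, stood at 327, 422 and 400.4 CPM in WT and at 155, 173 and 205 CPM in *fpa*. *PPOX* (AT4G01690), an enzyme of the pathway to chlorophyll and haem, averaged 175 ± 18.0 CPM in WT and 74.3 ± 5.27 CPM in *fpa*. *THX* (AT1G50320), a chloroplast thioredoxin, averaged 106 ± 2.35 CPM in WT and 44.1 ± 2.56 CPM in *fpa*. These nuclear genes were at 102% to 113% of WT in *bdrs*.

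*LPA3* (AT1G73060), an assembly factor of photosystem II, stood at 114, 129 and 119.9 CPM in WT and at 48.7, 49.8 and 37.2 CPM in *fpa*. *NdhO* (AT1G74880) and *NdhN* (AT5G58260) encode subunits of the chloroplast NADH dehydrogenase-like complex, which carries electrons around photosystem I. They stood at 79.4 ± 6.94 and 45.3 ± 9.86 CPM in WT and at 34.4 ± 7.18 and 21.0 ± 4.70 CPM in *fpa*. The lowest WT library of *NdhN* (34.2 CPM) remained above the highest *fpa* library (25.2 CPM). None of the 16 genes of the light-harvesting list was a member, and 0 of 16 were called in *fpa* by edgeR, with a median log2 fold change of 0.12.

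Of the other abundant members, *PLDALPHA1* (AT3G15730) encodes phospholipase D alpha 1, which releases phosphatidic acid from membrane lipids. It stood at 295, 375 and 325 CPM in WT, 186, 161 and 132 CPM in *fpa*, and 323, 490.3 and 461 CPM in *bdrs*. The non-coding RNA *GUT15* (AT2G18440) averaged 164 ± 25.8 CPM in WT and 74.97 ± 1.94 CPM in *fpa*. AT2G21580, a ribosomal protein S25 gene, averaged 119.9 ± 11.6 CPM in WT and 59.4 ± 6.59 CPM in *fpa*, and AT4G38225, annotated as a glycerol kinase, at 96.5 ± 12.4 and 47.1 ± 2.20 CPM. Scaled by exon length, the WT level ran from 72.2 CPM per kb for AT4G38225 to 316 CPM per kb for *TLP18.3* among these 8 abundant members.

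Other roles were spread over the set, and the genes named in this paragraph were picked for their roles after their values were seen. In vesicle and protein sorting, *ELC*, a subunit of the ESCRT-I complex that sorts ubiquitylated cargo, averaged 36.3 ± 3.15 CPM in WT and 18.0 ± 0.807 CPM in *fpa*, and *AMSH2*, related to deubiquitylating enzymes, at 15.3 ± 1.67 and 6.06 ± 0.756 CPM. Among transporters, *HMA5*, a copper pump, stood at 6.65 ± 0.659 and 2.65 ± 0.0645 CPM, and *NRT1.7*, a nitrate transporter of the phloem, at 29.4 ± 5.98 and 14.6 ± 2.02 CPM. In RNA and chromatin functions, *ATR*, a kinase of the DNA damage checkpoint, averaged 4.57 ± 1.07 and 1.86 ± 0.263 CPM, *NAC052*, a transcription factor, at 22.2 ± 3.98 and 10.8 ± 1.74 CPM, and *OTP86*, a factor of chloroplast RNA editing, at 5.45 ± 0.995 and 2.68 ± 0.313 CPM. *ATG10*, an enzyme of autophagosome formation, stood at 2.95 ± 0.501 and 1.06 ± 0.513 CPM. Of the fixed lists of pathway genes, which cover flowering, RNA 3′ end formation, hormones, defence, heat, the clock, nutrients, root cell types, flavonoids, seeds and light harvesting, only 2 held a member, *SESA2* and *CYP81F2*. In the list of 3′ end formation, 0 of 18 tested genes were called in *fpa*, and in the list of nucleotide-binding immune receptors 0 of 15 (edgeR). The latter list did not include the member AT5G63020, of the same class.

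By edgeR's quasi-likelihood test over 20143 genes, 97 of the 118 members were called lower in *fpa* and 0 higher, at an adjusted p under 0.05. Over all genes 3.12% were called lower and 1.31% higher. The rule used this contrast, so nothing is read from the difference. With the replicate number as a block, 107 members were called lower, while the count of all genes called lower went from 629 to 888 and that of genes called higher from 264 to 474.

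A loss only in *fpa* did not describe every member, since 7 had means at or below 0.5 times WT in *bdr1* and some were higher in *bdrs*. In *bdrs*, 6 members were called higher and 0 lower, against 1.89% and 2.78% of all genes, and the rule, which set a floor on *bdrs*, used this contrast as well. All *bdrs* libraries were above all WT libraries in 12 members and below them in 9, against 9.46% and 8.54% of tested genes. The rule used both groups, so nothing is read from these shares. The 6 genes called higher were *CYP71A12*, *CYP81F2*, *GSTF7*, the peroxidase gene AT5G64120, the extensin-like gene AT1G26250 and the MATE transporter gene AT2G04050. Without *bdrs* 1, which was rich in ribosomal RNA, 10 members were called higher, while the count of all genes called higher went from 381 to 696.

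Several of these genes act in chemical defence. *CYP71A12* (AT2G30750) encodes a cytochrome P450 of indolic defence compounds. It stood at 0.821, 1.1401 and 6.49 CPM in WT, 15.0, 46.6 and 22.8 CPM in *bdrs*, and 0.769, 0.658 and 0.432 CPM in *fpa*. Only WT 3 was clearly above *fpa*, so its place in the set rested on 1 library.

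*CYP81F2* (AT5G57220), a P450 that modifies indole glucosinolates, stood at 2.29, 1.88 and 5.02 CPM in WT, 9.12, 22.9 and 12.5 CPM in *bdrs*, and 1.79, 1.137 and 1.04 CPM in *fpa*. *GSTF7* (AT1G02920), a glutathione transferase, stood at 31.1, 21.8 and 40.03 CPM in WT, 96.5, 195 and 77.8 CPM in *bdrs*, and 19.4, 15.5 and 8.21 CPM in *fpa*. AT5G64120 stood at 37.7, 44.4 and 77.3 CPM in WT, 201, 288 and 123 CPM in *bdrs*, and 28.8, 29.3 and 16.8 CPM in *fpa*. In all of these genes WT 3 was the highest WT library and *bdrs* 2 the highest *bdrs* library.

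*CBP60G*, a transcription factor that promotes synthesis of the defence hormone salicylic acid, had the same shape, with 3.58, 2.96 and 6.38 CPM in WT, 4.90, 13.6 and 8.63 CPM in *bdrs* and 2.43, 2.09 and 1.82 CPM in *fpa*, but it was not called in *bdrs*. Without WT 3, none of *CYP71A12*, *CYP81F2*, *GSTF7*, AT5G64120 and *CBP60G* met the rule. The upstream sequences of the P450 genes are shown as examples of members higher in *bdrs* and lower in *fpa* than in WT. Each is the 250 bases before the annotated start, on the gene's strand (TAIR10.1 of RefSeq), at chr2:13101372-13101621 (minus strand) and chr5:23187590-23187839 (plus strand). Capitals mark W-boxes (TTGACC or TTGACT) and TATA boxes (TATAAA) on either strand.

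CYP71A12: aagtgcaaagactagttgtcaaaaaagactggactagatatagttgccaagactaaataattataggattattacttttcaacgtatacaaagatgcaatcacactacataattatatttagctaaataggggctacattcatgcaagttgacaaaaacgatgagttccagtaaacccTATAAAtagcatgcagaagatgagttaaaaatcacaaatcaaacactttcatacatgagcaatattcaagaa

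CYP81F2: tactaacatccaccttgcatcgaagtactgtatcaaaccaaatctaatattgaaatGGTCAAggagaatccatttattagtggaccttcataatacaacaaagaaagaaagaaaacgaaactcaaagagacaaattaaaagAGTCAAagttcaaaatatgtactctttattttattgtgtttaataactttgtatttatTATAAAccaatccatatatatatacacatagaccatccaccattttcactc

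Both stretches hold a TATA box, and that of *CYP81F2* also holds 2 W-boxes. Over all 32834 promoters of 300 bases (250 before and 50 after the start), 31.9% hold a W-box and 50.05% a TATA box, so either match is common.

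**Figure D3:**
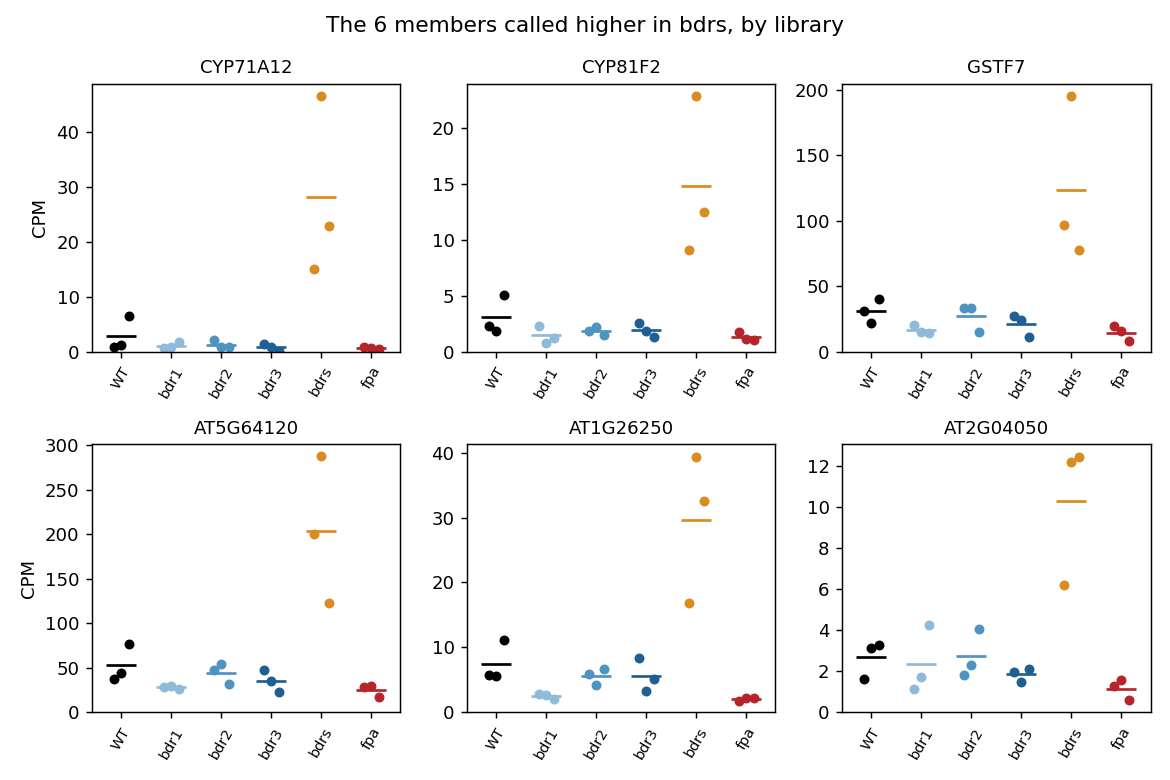
CPM of the 6 members called higher in *bdrs* in the 18 libraries (points) with group means (bars), each panel with its own vertical axis from 0. The *bdrs* points lie above all WT points and the *fpa* points below them, and for *CYP71A12* the WT points span 0.821 to 6.49 CPM.

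The libraries of *bdr1*, *bdr2* and *bdr3* did not enter the rule, whereas those of WT did. No member was called against WT in *bdr1*, *bdr2* or *bdr3* (edgeR), where over all genes 0.0199%, 0.0348% and 0.0199% were called lower and 0.00496%, 0.00496% and 0% higher. At an unadjusted p under 0.05, 24 members were lower in *bdr1* and 0 higher, against 3.71% and 2.07% of all genes. In *bdr2* 0 members differed (0.357% of all genes lower and 0.437% higher), and in *bdr3* 2 were lower and 2 higher (1.51% and 2.92%). DESeq2 called 1 member in *bdr1* (AT1G26250, lower) and 0 in *bdr2* and *bdr3*. Over all genes it called 25 lower and 1 higher in *bdr1*, 8 and 1 in *bdr2*, and 6 and 2 in *bdr3*. In a simulated *bdr1* contrast over 19962 genes, the test recovered 56.7% of 2-fold and 97.0% of 4-fold changes, so smaller differences could go uncalled.

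The median log2 fold change of the members was −0.13 in *bdr1*, −0.01 in *bdr2* and −0.01 in *bdr3*, and over all genes it was 0.02, 0.00 and −0.01. All libraries of *bdr1* were below all WT libraries in 18 members and above them in 0, against 4.69% and 1.90% of tested genes. In *bdr2* the counts were 4 below and 1 above (2.20% and 1.96% of tested genes), and in *bdr3* they were 1 below and 2 above (4.27% and 3.05%). In *bdr1* the median member stood at 96.9% of WT in library 1 and at 75.6% and 76.1% in libraries 2 and 3, in CPM. With library sizes scaled by TMM, a setting added after the data were seen, the values were 87.8%, 88.4% and 87.8%.

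*bdr1* against the mean of *bdr2* and *bdr3* was the one contrast whose libraries the rule did not use at all. No member was called, against 0.248% of all genes lower and 0.0199% higher (edgeR), and the smallest adjusted p of a member was 0.0897 (ATMG00090, a mitochondrial gene, log2 fold change −1.05 ± 0.25 SE). At an unadjusted p under 0.05, 24 members (20.3%) were lower and 1 higher, while 5.97% of all genes were lower and 7.51% higher. The median log2 fold change was −0.13 for the members and 0.01 for all genes. DESeq2 called 2 members lower (ATMG00090 and AT5G58160), and 121 of all genes. Without *bdr1* 1 the edgeR test called 3 members lower, and 181 of all genes lower, against 50 in the main fit. With the replicate number as a block, which was not taken as pairing in this contrast, edgeR called 2 members and 76 of all genes lower.

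In 7 members the mean of at least 1 single mutant was at or below 0.5 times WT, namely AT4G16870, *SESA2*, *CYP71A12*, AT1G26250, *DTX1*, AT5G27890 and *CYP81F2*, each in *bdr1*, and *CYP71A12* in *bdr2* and *bdr3* as well. *DTX1*, a MATE transporter that exports toxic compounds, stood at 3.05, 4.39 and 5.02 CPM in WT, 1.29, 1.99 and 2.20 CPM in *bdr1*, and 1.41, 0.958 and 1.04 CPM in *fpa*. AT1G26250 stood at 5.69, 5.64 and 11.1 CPM in WT, 2.91, 2.61 and 2.12 CPM in *bdr1*, and 1.73, 2.15 and 2.25 CPM in *fpa*. In these genes *bdr1* lay below WT and close to *fpa*. In the other 111 members each single mutant kept more than that share of the WT mean, and *fpa* was the lowest group of all 118.

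The genes around the members were examined next, since the rule used no position. Of the 118 members, 117 matched a nuclear gene in the RefSeq annotation of TAIR10.1. They included 110 protein-coding genes, 4 long non-coding RNAs, 2 pseudogenes and 1 other non-coding RNA. They are compared with the 16454 other annotated genes at 2 CPM or more in WT, and with 178 annotated genes that met the same *fpa* conditions but were under 0.75 times WT in *bdrs*, as counts with no test.

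A downstream gene on the opposite strand that overlapped the member's end was annotated for 40.2% of members, for 26.4% of the genes low in both mutants and for 21.8% of other genes. The median overlap of such convergent pairs was 121 bases for the members and 78 for other genes. An overlap with any gene of the opposite strand was found for 46.2%, 28.7% and 25.6% in the same order. The downstream gene lay on the same strand in 37.6% of members, 43.3% of the genes low in both and 50.3% of other genes. For 53.0% of members both adjacent genes overlapped or lay within 500 bp, against 31.5% and 29.1%.

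Whether strand was used when reads were assigned to genes is not given in the sources used here. The libraries were strand-specific, and AT1G05560 and AT1G05562, which occupy the same span on opposite strands in RefSeq, held 5625 and 7637 counts in all. Reads in overlaps are uncertain where the older TAIR10 gene models, which were counted, differ. The 54 members that overlap a gene of the other strand stood at a median of 42.1% of WT in *fpa*, and the other 63 at 44.6%. The rule limited this value to at most 0.5 times WT in every member, so the medians cannot show whether reads in overlaps mattered.

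Gene length differed little, with a median of 2418 bases for the members and 2486 for other genes, and the median number of exons was 5 in both. On chromosome 1, 16 of the 37 members of that chromosome started beyond 25 Mb. That region held 13.7% of all members and 5.90% of other genes. In windows of 5 Mb, members made up 1.69% of the genes in the window from 25 Mb on chromosome 1. The window from 25 Mb on chromosome 5, with 7 members, had nearly the same share (1.67%). A W-box was found in 41.9% of member promoters, 24.7% of promoters of the genes low in both and 32.1% of other promoters. A G-box was found in 11.1%, 36.0% and 9.38%, a TATA box in 45.3%, 48.3% and 51.2%, and a site II element in 20.5%, 14.6% and 19.9%. The evening element and the telo-box were found in 0.855% and 6.84% of member promoters and in 2.94% and 5.51% of other promoters.

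**Figure D4:**
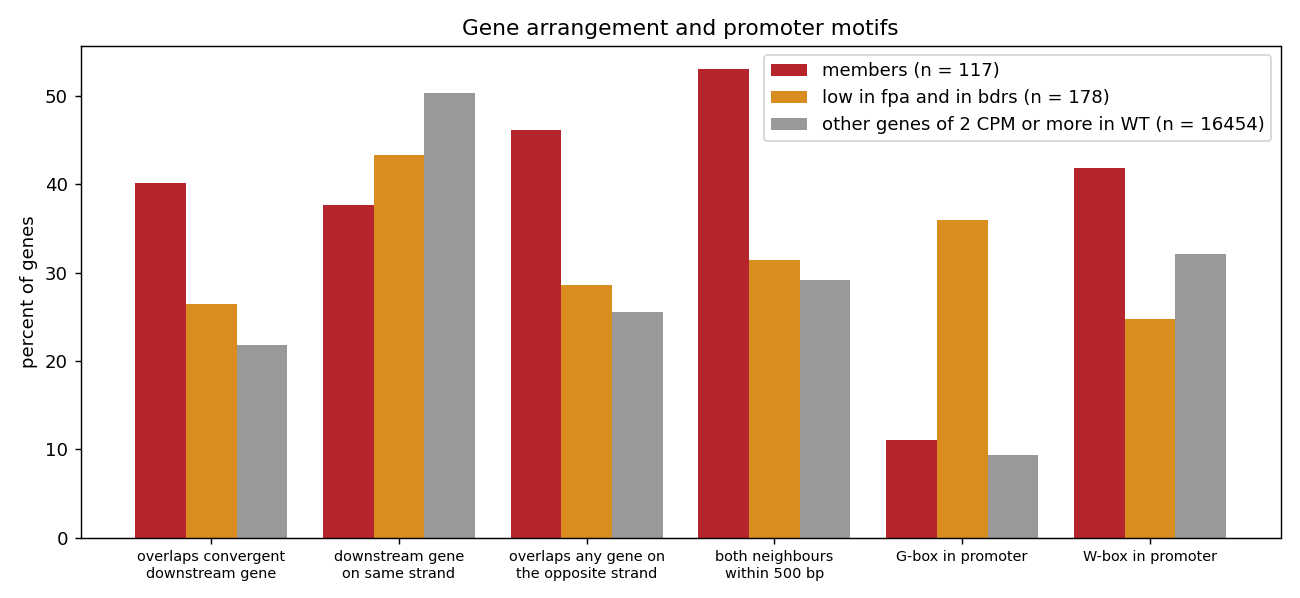
Percentage of genes with each feature of arrangement or promoter among 117 annotated members, 178 genes low in both *fpa* and *bdrs*, and 16454 other genes at 2 CPM or more in WT. Of the 3 sets, the members have the highest bar for overlap with a convergent gene (40.2%) and the lowest for a downstream gene on the same strand (37.6%).

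Where a member was followed on its own strand by another gene within 500 bp, that gene was called higher in *fpa* in 5 cases. Of 23 tested same-strand downstream neighbours, 5 were called higher and 1 lower, which is 21.7% and 4.35%. Among the 3261 such neighbours of other genes the shares were 2.51% and 3.65%, and among 23 of the genes low in both mutants they were 4.35% and 4.35%. These neighbours are not members and did not enter the rule, but they were measured in the same *fpa* and WT libraries. The 5 genes followed *ADK1*, *LPA3*, *NdhO*, AT2G21580 and AT3G09410.

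AT5G63390, an O-fucosyltransferase family gene 235 bases downstream of *ADK1*, stood at 0.879, 0.684 and 0.790 CPM in WT, 0.301, 0.799 and 0.528 CPM in *bdrs*, and 12.7, 11.1 and 10.6 CPM in *fpa*. It was 14.6-fold higher in *fpa* (edgeR adjusted p = 7.31e-09, log2 fold change 3.92 ± 0.25 SE), and the groups did not overlap. In *bdrs* its log2 fold change was −0.48 ± 0.32 SE, and the gene was not called (edgeR adjusted p = 0.585).

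*APL4* (AT2G21590), which encodes a large subunit of the starch-forming enzyme ADP-glucose pyrophosphorylase, lies 449 bases after the ribosomal protein gene AT2G21580. It stood at 1.64, 2.34 and 2.15 CPM in WT and at 13.6, 8.86 and 7.35 CPM in *fpa* (4.87-fold, edgeR adjusted p = 2.93e-05). In *bdrs* it stood at 1.58, 1.40 and 2.05 CPM, within the range of WT or just below it.

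AT1G73066, a leucine-rich repeat gene 223 bases after *LPA3*, stood at 0.469, 0.969 and 0.395 CPM in WT and at 3.52, 2.09 and 1.90 CPM in *fpa* (4.10-fold, edgeR adjusted p = 0.00374). AT1G74875, an F-box gene 82 bases after *NdhO*, stood at 0.645, 0.912 and 0.677 CPM in WT, 1.28, 1.65 and 1.64 CPM in *bdrs*, and 2.63, 2.75 and 2.07 CPM in *fpa* (3.34-fold, edgeR adjusted p = 6.88e-04). Its *bdrs* libraries were also above WT, but the difference missed the threshold (edgeR adjusted p = 0.0630).

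AT3G09405, a pectin acetylesterase gene, overlaps the end of the member AT3G09410, of the same family, by 37 bases on the same strand, so reads of the overlap and of similar sequence cannot be assigned with certainty. It stood at 1.23, 2.45 and 1.64 CPM in WT, 6.40, 10.6 and 6.34 CPM in *bdrs*, and 10.4, 8.02 and 7.09 CPM in *fpa*. It was higher in both mutants (edgeR adjusted p = 4.57e-05 in *bdrs* and 2.07e-05 in *fpa*), whereas AT3G09410 stood at 77.3% of WT in *bdrs* and 38.3% in *fpa*.

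The gaps after *ADK1*, *LPA3* and *NdhO* are shown because they are all that lies between the end of the lower gene and the start of the higher one. Each is written on the strand of the genes (TAIR10.1 of RefSeq), at chr5:25392685-25392919 (minus strand), chr1:27481562-27481784 (plus strand) and chr1:28129746-28129827 (minus strand). Capitals mark a TATA box (TATAAA) on either strand.

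ADK1 to AT5G63390: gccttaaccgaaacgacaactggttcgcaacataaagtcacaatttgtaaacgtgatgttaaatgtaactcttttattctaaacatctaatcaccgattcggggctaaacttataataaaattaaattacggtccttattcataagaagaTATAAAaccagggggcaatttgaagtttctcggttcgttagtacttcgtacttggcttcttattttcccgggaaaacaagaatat

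LPA3 to AT1G73066: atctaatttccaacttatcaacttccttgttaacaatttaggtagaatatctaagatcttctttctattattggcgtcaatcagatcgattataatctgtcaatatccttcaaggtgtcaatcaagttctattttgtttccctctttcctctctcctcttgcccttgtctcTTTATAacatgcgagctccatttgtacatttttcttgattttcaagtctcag

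NdhO to AT1G74875: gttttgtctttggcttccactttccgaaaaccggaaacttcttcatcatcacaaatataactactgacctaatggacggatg

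The first gap holds a TATA box on the strand of the genes, the second on the other strand, and the third none. Of 3874 gaps of 20 to 300 bases between same-strand neighbours, 27.2% hold this motif.

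**Figure D5:**
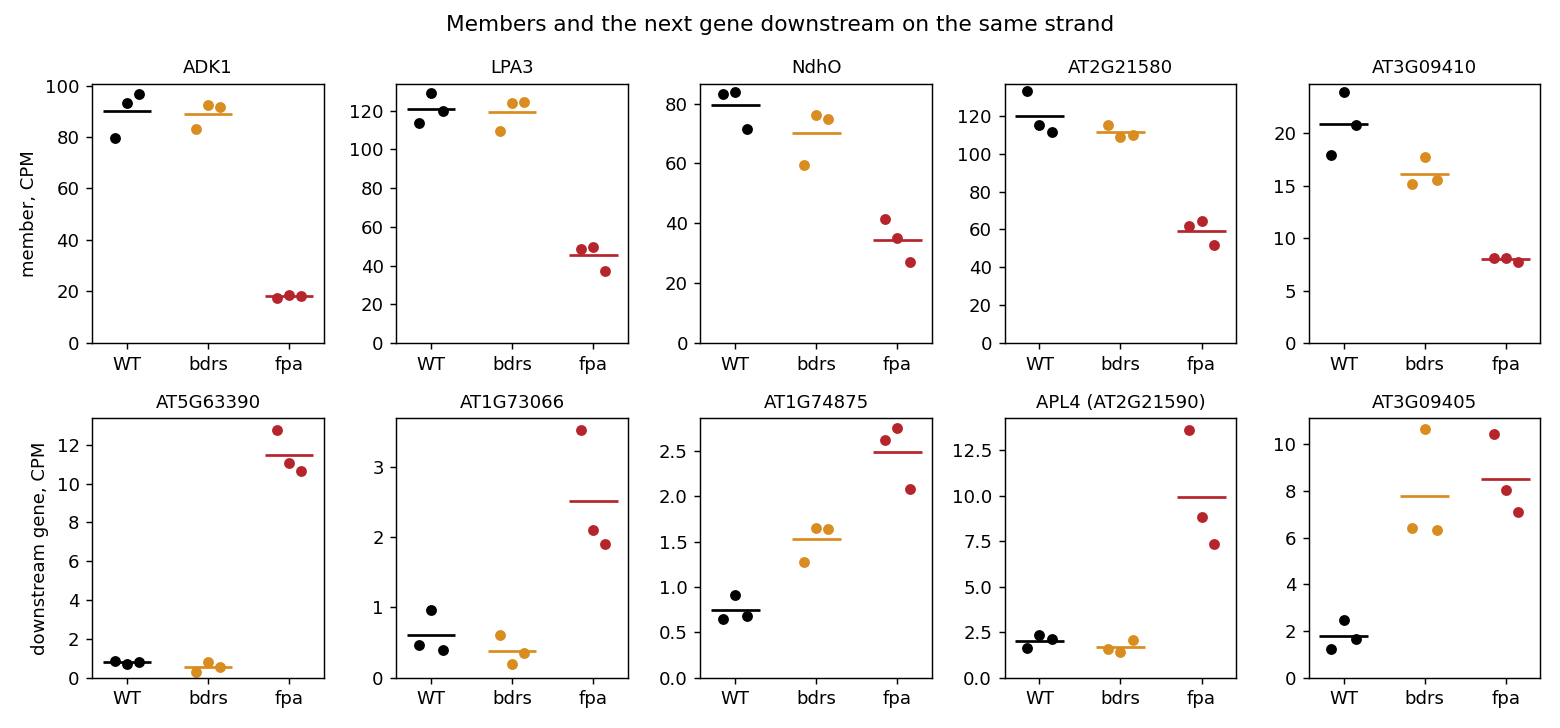
CPM of 5 members (upper row) and of the next gene downstream on the same strand (lower row) in the WT, *bdrs* and *fpa* libraries (points) with group means (bars), each panel with its own vertical axis from 0. In *fpa* every upper panel falls and every lower panel rises, by 3.34-fold to 14.6-fold in the lower row.

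Neighbours in the other positions are given for comparison, with no test between positions. Of 32 tested same-strand upstream neighbours within 500 bp, 1 was called higher (AT4G22390 beside AT4G22380, edgeR adjusted p = 0.0480) and 2 lower, against 1.15% and 2.08% of those of other genes. With the replicate number as a block, 2 were called higher. Of 19 upstream neighbours on the opposite strand, 1 was higher and 4 lower (5.26% and 21.1%, against 0.876% and 2.37%). Among 25 such neighbours of the genes low in both mutants the shares were 0% and 16.0%, so a raised share of lower neighbours was not particular to the members. The 1 neighbour of a member that rose was AT1G79890, a helicase gene 110 bases from *La2*, which encodes an RNA-binding La protein. It went from 0.861 ± 0.175 to 3.44 ± 0.852 CPM (edgeR adjusted p = 4.00e-04).

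Convergent downstream neighbours within 500 bp were called lower in 5 of 43 cases and higher in 0 (11.6% and 0%), against 3.46% and 0.783% of those of other genes, with pairs of members left out. Of 58 such neighbours of the genes low in both mutants, 0% were lower and 1.72% higher. The count of lower neighbours of members fell to 2 without WT 2, WT 3, *fpa* 1 or *fpa* 2, and to 4 without WT 1 or *fpa* 3. It rose to 7 by DESeq2 and with the replicate number as a block, and to 6 within 1000 bp. Among the 5 was *ADH1*, alcohol dehydrogenase, whose end overlaps that of the member AT1G77122 by 61 bases. It fell from 7.80, 12.03 and 11.4 CPM in WT to 5.12, 6.28 and 2.94 CPM in *fpa* (edgeR adjusted p = 0.0189). It was also lower in *bdrs*, at 4.67, 3.49 and 5.05 CPM (edgeR adjusted p = 0.00428).

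In 6 cases both adjacent genes were members. Besides AT5G63020 and *GRXC1*, 4 pairs were convergent with overlapping ends, and *DTX1* and AT2G04050 lay 629 bases apart on the same strand. *NAPRT1*, of NAD salvage, and AT4G36945, a phospholipase C-like gene, overlap by 335 bases and stood at 48.6% and 38.8% of WT in *fpa*. AT1G48540 and AT1G48550, the latter a homologue of the sorting protein VPS26, overlap by 30 bases and stood at 44.7% and 45.4%. AT1G74360, a receptor-like kinase gene, and AT1G74370, a RING finger gene, overlap by 29 bases and stood at 35.7% and 47.0%. In *bdrs* the members of this last pair parted, at 205% and 84.8% of WT.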

How the data were processed

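Strand-specific mRNA libraries (TruSeq, 1.5 µg RNA) of 18 samples were sequenced in pairs of 43 bp. The authors aligned reads with STAR 2.5.2b, processed them with SAMtools 1.3.1 and deposited raw counts of reads per TAIR10 gene from featureCounts, which were used here. Their second table, normalized with DESeq2 1.14.1 in R 3.3.2, was not used. CPM are counts over the library total, with 3 libraries per group. Counts were tested with edgeR 4.0.16 (TMM, filterByExpr, quasi-likelihood, 1 fit to the 18 libraries with 12 residual degrees of freedom) in R 4.3.3, with Benjamini-Hochberg adjustment over 20143 genes and calls at an adjusted p under 0.05. On simulated *fpa* data over 19931 genes, 56.7% of 2-fold changes were recovered. Alternatives were DESeq2 1.42.0, other scalings and filters, a replicate block and leaving libraries out. Within each group, no library was a copy of another (chi-square per degree of freedom at least 13.5). Same-numbered *fpa* and WT libraries had an r of 0.112 to 0.426, all over 0.1, so the number was taken as pairing these 2 groups from the data alone. This pairing was not clear-cut, and the p-values and counts for *fpa* are from the fit without a block unless another fit is named. A library was closest to its own number in 2 of 3 comparisons, and WT 2 was closer to *fpa* 1 (r of 0.215). Neighbours came from RefSeq TAIR10.1, which matched 32835 of 33323 nuclear genes and is newer than the models counted. Negative distances are overlaps. List symbols were matched to RefSeq, and 7 that RefSeq gives to an unrelated gene were left out. The members, gene lists and tests were chosen with earlier results of these data known. Named genes were *FPA* and *FLC*, the 15 members with the lowest ratio, the 8 with the highest WT CPM, those with a same-strand neighbour higher in *fpa*, adjacent members, members of lists and those at each limit. Genes outside this rule were chosen after their values were seen.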

Additional observations from a re-analysis of the deposited data

How the results depend on the processing

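The size of the set depended on its limits. With *fpa* at most 0.4 or 0.6 times WT it held 40 and 397 genes, with *bdrs* at least 0.9 times WT 76, and with 1 library left out 106 to 245. In *fpa*, the count of all genes higher was 443 by DESeq2 and 136 to 204 with 1 library left out, and that of genes lower was 340 to 600. Of same-strand upstream neighbours, 2 were higher by DESeq2, 0 within 250 bp and 0 to 1 with 1 library left out. Of convergent neighbours, 2 to 4 were lower with 1 library left out, and 7 by DESeq2. The 5 same-strand downstream neighbours higher in *fpa* kept that count in each library left out, and 6 were higher by DESeq2 and with the replicate block.

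In *bdrs*, 693 genes were higher without the libraries richest in ribosomal RNA. With 1 library left out, 170.0 to 696 were higher, 355 to 721 lower, and 5 to 10 members higher. In *bdr1*, 10 genes were lower with no filter and 25 by DESeq2, which called 1 member. In *bdr2*, leaving out 1 library gave 0 to 1 higher and 4 to 6 lower. In *bdr3*, 1 gene was higher with no filter, 2 by DESeq2 and 48 with only the groups compared. For *bdr1* against *bdr2* and *bdr3*, DESeq2 gave 24 higher, 121 lower and 2 members lower, the fit of these groups alone 33 lower, and the fit without the ribosomal RNA-rich libraries 20 lower. Leaving out 1 library gave 3 to 288 higher, 12 to 181 lower and 0 to 3 members lower. Without *bdr1* 1 that balance thus turned from mostly lower (50 against 4) to mostly higher, and so did that of *bdr3* with only the groups compared, where 5 genes were lower. The cause was not tested.

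With the replicate number as a block, *fpa* had 474 genes higher and 2 same-strand upstream neighbours higher, and the pairing moved no other count of this contrast by over 1.5 times. In the other contrasts not every same-numbered pair had an r over 0.1 (lowest between −0.27 and 0.07), so the numbers were not taken as pairing. For *bdrs* against WT these r values ran from 0.02 to 0.23, yet a library was closest to its own number in 3 of 3 comparisons. For *bdr1* against *bdr2* and *bdr3* the r values ran from 0.07 to 0.65, and in 8 of 9 comparisons a library was closest to its own number, a hint from the data only. The block there gave 1 gene higher in *bdr3*, and 76 genes and 2 members lower in *bdr1* against *bdr2* and *bdr3*.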
